A study of Mus musculus with 6 samples.

Results

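Malat1, Neat1, Gm42418, AY036118, Gm26917, Cmss1 and Lars2 were followed through the single-cell RNA-Seq tables of CD45+ midbrain cells. They are 7 of the 32285 genes in the tables, taken by name: 2 nuclear long RNAs and 5 genes proposed as a group that overlaps ribosomal RNA. The genes were selected on their measured levels in these libraries, where Gm42418 and Cmss1 were high in PFF + VH, so their levels by library are given as a description and carry no p.

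All mice were Line 61 males, in which the Thy1 promoter, active in neurons, drives human α-Syn, and no library is free of the transgene. At 12 to 15 weeks of age PBS, α-Syn monomer or preformed α-Syn fibrils (PFF) were injected into the striatum on both sides. The PFF mice received AZD1480 at 25 mg/kg, an inhibitor of JAK1 and JAK2, or its vehicle (VH), from week 2 for 4 weeks. At week 6 the ventral midbrains of 3 to 5 mice were pooled per sample and live CD45+ cells were sorted for 10x 3′ libraries, 1 library per condition. Antibodies with an oligonucleotide tag (hashtags) separate 4 samples within PFF + VH and 5 within PFF + AZD1480, and they served as replicates here. The study's methods state 3 replicates each for PBS and Monomer. These libraries carry no hashtags in the deposited counts, so their replicates cannot be separated here.

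Malat1 and Neat1 are transcripts that stay in the nucleus. Malat1 gathers at nuclear speckles, where splicing factors are stored, and Neat1 is the scaffold of paraspeckles, bodies that hold RNA-binding proteins. Ribosomal RNA carries no poly(A) tail, but an oligo(dT) primer can also start on a stretch of A within a transcript. Cmss1 encodes a protein named for its likeness to a yeast factor of the small ribosomal subunit, and Lars2 encodes the leucyl-tRNA synthetase of mitochondria. Gm42418, AY036118 and Gm26917 are annotated as long non-coding RNAs.

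In the annotation (GENCODE M21, mm10) an rRNA gene overlapped 2 of the 5 genes of the ribosomal group. Gm42418 (chr17:39846958-39848788, + strand) lies with all of its 1831 bases over the annotated rRNA gene CT010467.1 (chr17:39846353-39848827, − strand), on the opposite strand. AY036118 (chr17:39847113-39848035, − strand) lies on the rRNA strand, and all of its 923 bases are inside both CT010467.1 and Gm42418. Gm26917 (chr17:39843013-39846341, + strand) ends just before CT010467.1 and shares no base with it. Cmss1 (chr16:57302000-57606864, − strand) spans 304865 bases, of which 0.655% are exonic, and Filip1l lies inside it on the + strand. Lars2 is at chr9:123366927-123462666 on the + strand. In a sequence search of the transcripts of the 7 genes against 356 annotated rRNA transcripts, Gm42418 (1244 bases, minus strand) and AY036118 (923 bases, plus strand) had a match, and the other 5 genes had none. The full ribosomal DNA repeat with its spacers was not searched, so these 5 were compared with annotated rRNA transcripts only. The genes are therefore named singly below. Malat1 (chr19:5795690-5802672) and Neat1 (chr19:5824708-5845478) are neighbours on the − strand.

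**Figure D1:**
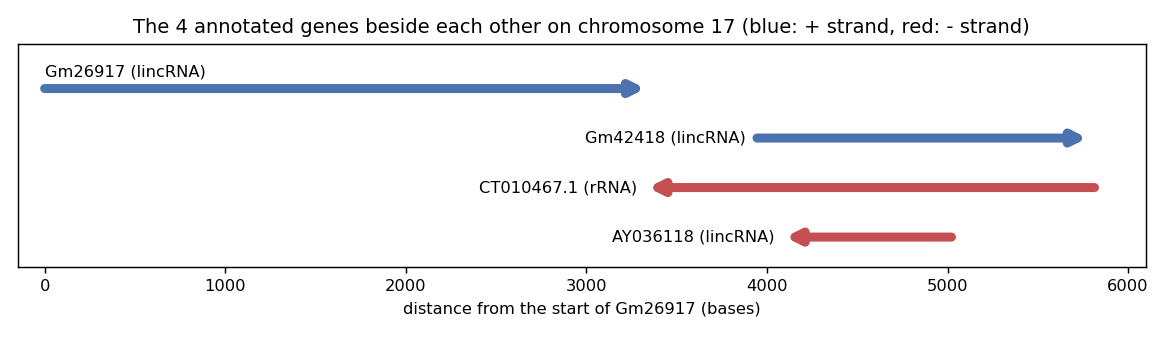
Map of Gm26917, Gm42418, CT010467.1 and AY036118, with the distance from the start of Gm26917 in bases on the x axis, arrows showing the direction of transcription and colours the strand. Gm42418 (1831 bases) and AY036118 (923 bases) run in opposite directions over the rRNA gene CT010467.1, while Gm26917 stops before it.

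The longest runs of A in the transcripts, where an oligo(dT) primer could start, are shown within their surrounding bases (GENCODE M21, mm10, 5′ to 3′) for 3 of the genes, with the matching bases of AY036118, to show how both strands of the rRNA locus read. Capitals mark the run. They are not the only stretches rich in A: in Neat1 another window holds 17 A in 20 bases. Gm42418 holds a run of 6 A in the stretch chr17:39847147-39847206. The same bases read from the other strand are a run of 6 T in AY036118, whose own longest run of A has 4 bases. By windows the order is the other way: AY036118 has up to 13 A in 20 bases and Gm42418 up to 11. Malat1 holds a run of 12 A (chr19:5795960-5796019) and Neat1 a run of 7 A (chr19:5832872-5832931). Whether a run was primed was not tested.
Gm42418: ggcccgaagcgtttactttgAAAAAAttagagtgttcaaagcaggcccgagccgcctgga
AY036118: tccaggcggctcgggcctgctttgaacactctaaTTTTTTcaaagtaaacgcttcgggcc
Malat1: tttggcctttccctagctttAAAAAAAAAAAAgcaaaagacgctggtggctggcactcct
Neat1: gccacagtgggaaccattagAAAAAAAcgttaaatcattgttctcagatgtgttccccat

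Cells with 500 to 15000 UMIs (distinct molecules counted), 250 to 5000 genes and at most 10% mitochondrial UMIs were kept. This left 13021 to 34436 cells per library, the most in PFF + VH, whose median of 2306 UMIs per cell was below the 6616 to 7028 of the other libraries. The 7 genes took 3.57% of the UMIs in PFF + VH and 3.00% in PFF + AZD1480, against 2.64% in PBS and 2.80% in Monomer. In PFF + VH, 35.2% of the kept cells had no hashtag call, with a median of 1315 UMIs, against 6.40% in PFF + AZD1480, so hashtag values of PFF + VH rest on its deeper cells. Pairs of libraries shared 45 to 151 barcodes of kept cells, and without these cells the levels of the 7 genes in microglia moved by at most 0.282%. Cells were classed by their marker UMIs as microglia (MG), monocytes/macrophages (MM), T, NK or B cells or neutrophils (Neu), and MG made up 93.7% to 95.3% of each library. Of 10 markers per class, 9 of MG and 7 of MM were highest in their own class (Fcrls was highest in MM, Ccr2 in NK cells, Ly6c2 and Chil3 in Neu), as were all 10 of each other class.

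Gm42418 and Cmss1 were highest in PFF + VH and next highest in PFF + AZD1480, while Malat1 spanned only 1.11-fold over the libraries. Levels are given as CPM, a gene's UMIs scaled by all UMIs of the class, with exact Poisson 95% intervals that cover counting error only. Gm42418 in MG reached 12255 CPM (12234 to 12276) in PFF + VH and 8575 (8555 to 8595) in PFF + AZD1480, against 6422 (6406 to 6438) in PBS and 7302 (7284 to 7319) in Monomer. Its level in PFF + VH was 1.68-fold (1.67 to 1.68) that of Monomer and 1.91-fold (1.90 to 1.91) that of PBS.

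The hashtags separated the PFF libraries for Gm42418. The 4 hashtags of PFF + VH had 11940, 11491, 11659.5 and 11223 CPM in MG, and the 5 of PFF + AZD1480 had 8555, 8309, 8329, 8565 and 8528. The groups did not overlap, with 11578 ± 301 CPM (SD, n = 4) and 8457 ± 127 CPM (SD, n = 5). Cmss1 was at 1161 CPM in PBS and 1429 in Monomer, and at 2492 in PFF + VH and 1847 in PFF + AZD1480. Its hashtags ranged from 2386 to 2543 CPM in PFF + VH and from 1831 to 1891 in PFF + AZD1480, again without overlap. Lars2 was also highest in PFF + VH, with 198 CPM, against 144 in PBS, 164 in Monomer and 159 in PFF + AZD1480, and its hashtags (177 to 206 against 153 to 161) did not overlap either.

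AY036118, which shares every base with Gm42418 on the other strand, did not share its order. It was at 459 CPM in PBS and 489.9 in Monomer, and at 500.3 in PFF + VH and 538 in PFF + AZD1480. Its hashtags lay at 444 to 498 CPM in PFF + VH, below the 518 to 552 of PFF + AZD1480. Gm26917 had 29.8 to 40.1 CPM in the 4 libraries, lowest in Monomer, and its hashtags overlapped (25.3 to 39.2 and 35.2 to 38.9).

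The nuclear long RNAs overlapped between the PFF libraries. Malat1 was at 17865 CPM in PBS and 18399.5 in Monomer, and at 19834 in PFF + VH and 18436 in PFF + AZD1480. Its hashtags ranged from 18788 to 20160.3 CPM in PFF + VH and from 18034 to 19356 in PFF + AZD1480. Neat1 was at 130.4 CPM in PBS and 136 in Monomer, and at 134 in PFF + VH and 186 in PFF + AZD1480. Single hashtags of Neat1 spread widely, with 113, 205, 139.8 and 67.8 CPM in PFF + VH and 225, 178, 148, 146 and 266 in PFF + AZD1480, and 1 hashtag of PFF + VH lay above 3 of PFF + AZD1480.

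**Figure D2:**
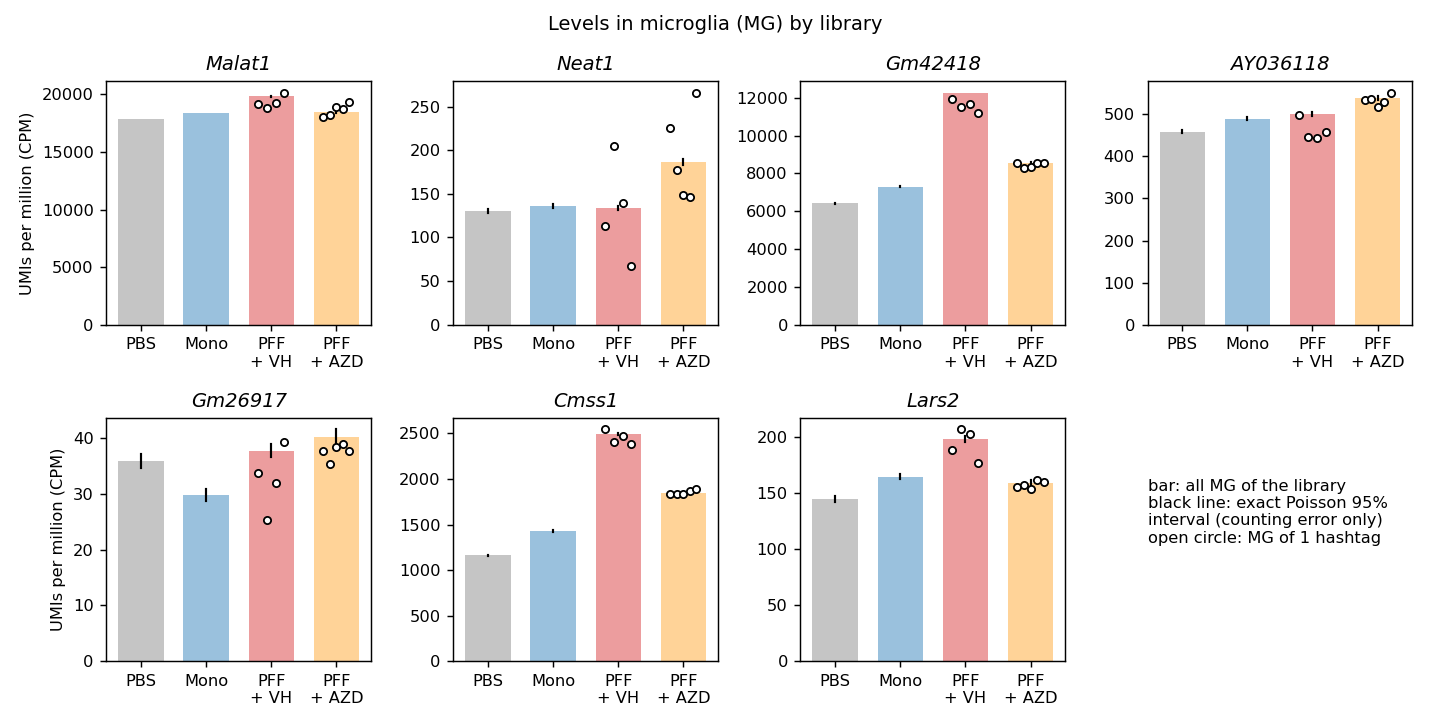
Levels of the 7 genes in MG (CPM, linear axes from 0), as bars for the 4 libraries with exact Poisson 95% intervals and open circles for single hashtags of PFF + VH and PFF + AZD1480. The circles of Gm42418 stand apart, at 11223 to 11940 CPM against 8309 to 8565, while those of Neat1 are spread from 67.8 to 266 CPM.

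In MG, 4 of the 7 genes (Gm42418, Cmss1, Lars2 and Malat1) were highest in PFF + VH, as were 19.7% of the 3460 genes averaging 50 CPM or more. A fold of at least 1.5 over Monomer was reached in PFF + VH by 2 of the 7, Gm42418 and Cmss1, and by 1.97% of those genes, and in PFF + AZD1480 by 0 of the 7 and by 1.76%. The hashtags of the PFF libraries did not overlap for 4 of the 7, against 23.6% of 13812 genes: 3 were lower in PFF + AZD1480 (9.73% of genes) and 1, AY036118, was higher (13.9%). The choice of the genes used this contrast, and nothing is read from these counts. In the edgeR fit over hashtags, the log2 difference of PFF + AZD1480 minus PFF + VH in MG was −0.50 ± 0.06 (SE) for Gm42418, −0.46 ± 0.05 for Cmss1, −0.35 ± 0.06 for Lars2 and −0.10 ± 0.06 for Malat1. It was 0.15 ± 0.09 for Gm26917, 0.16 ± 0.04 for AY036118 and 0.49 ± 0.27 for Neat1. Condition and library cannot be told apart here, since each condition is 1 library.

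Filip1l, which lies inside Cmss1 on the other strand, did not follow Cmss1. Its level in MG was 154 CPM in PBS and 129 in Monomer, and 116 in PFF + VH and 149.6 in PFF + AZD1480. By edgeR it was higher in PFF + AZD1480 than in PFF + VH by 0.32 ± 0.07 on the log2 scale (SE, adjusted p = 0.0051), and its hashtags did not overlap. Protein-coding genes that span over 100000 bases, 2462 genes with long introns, together took 167475 CPM of MG in PFF + VH, less than the 189590 of Monomer, 190285 of PFF + AZD1480 and 193342 of PBS. Cmss1 stood highest in the library where long genes as a group stood lowest. The part of intronic RNA in its level was not tested.

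Gm42418 and Cmss1 were highest in PFF + VH within each class of cells, and MG had the lowest level of both among the classes of each library. In B cells the intervals overlapped those of PFF + AZD1480, which had 12953 CPM of Gm42418 and 2281 of Cmss1. In PFF + VH, Gm42418 was at 15412 CPM in T cells, 13648 in NK cells, 13557 in Neu, 13411 in B cells, 13052 in MM and 12255 in MG. The intervals of NK cells, Neu, B cells and MM overlapped. In Monomer, T cells had 10921 CPM, B cells 8806, Neu 8803, NK cells 8648, MM 8014 and MG 7302. Cmss1 in PFF + VH was at 3509 CPM in T cells, 3363 in NK cells, 3086 in MM, 2823 in Neu, 2628 in B cells and 2492 in MG. In PBS the highest class for Cmss1 was Neu, with 2023 CPM. Cells that met no class, whose medians were 703 to 1164.5 UMIs, had more Gm42418 than any class of their library, up to 24162.5 CPM in PFF + VH.

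AY036118 had a higher level in each of the other classes than in MG in all 4 libraries, though in Neu of PFF + VH only 1.03-fold (138 UMIs, and 0.912-fold with MG weighted to the depth of the class), and reached 1046 CPM in B cells of PFF + AZD1480. Gm26917 was at 67.7 to 91.5 CPM in T cells against 29.8 to 40.1 in MG, on 15 to 55 UMIs per library. The hashtags held 0 to 6 UMIs of it each in T cells, from which no direction was read. In NK and B cells Gm26917 had no common direction, at 0.822- to 1.92-fold and 0.855- to 2.56-fold the level of MG, on 5 to 34 UMIs. Lars2 in T cells (165 to 185 CPM) had an interval that included the level of MG in 3 libraries and lay above it in PBS.

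Malat1 and Neat1 were ordered differently by class. Malat1 was highest in MM in each library, at 20393 CPM in PBS and 21410 in Monomer, and at 24549 in PFF + VH and 22662 in PFF + AZD1480, and lowest in Neu, at 10493 to 15412 CPM. T cells (14908 to 16926 CPM) and NK cells (14906 to 17965) lay below MG in each library. Neat1 was at 60.6 to 144 CPM in T cells and 76.2 to 126 in B cells, and at 347.5 to 426 in MM. In Neu it reached 1102 CPM (987 to 1226) in PBS and 995 (796 to 1229) in Monomer, against 325 (261 to 401) in PFF + VH and 393 (335 to 459) in PFF + AZD1480. These rest on 65, 18, 103 and 62 neutrophils, each from 1 library, and the Neu of PFF + VH held a median of 13 MG marker UMIs beside 117 of their own. No test was made.

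**Figure D3:**
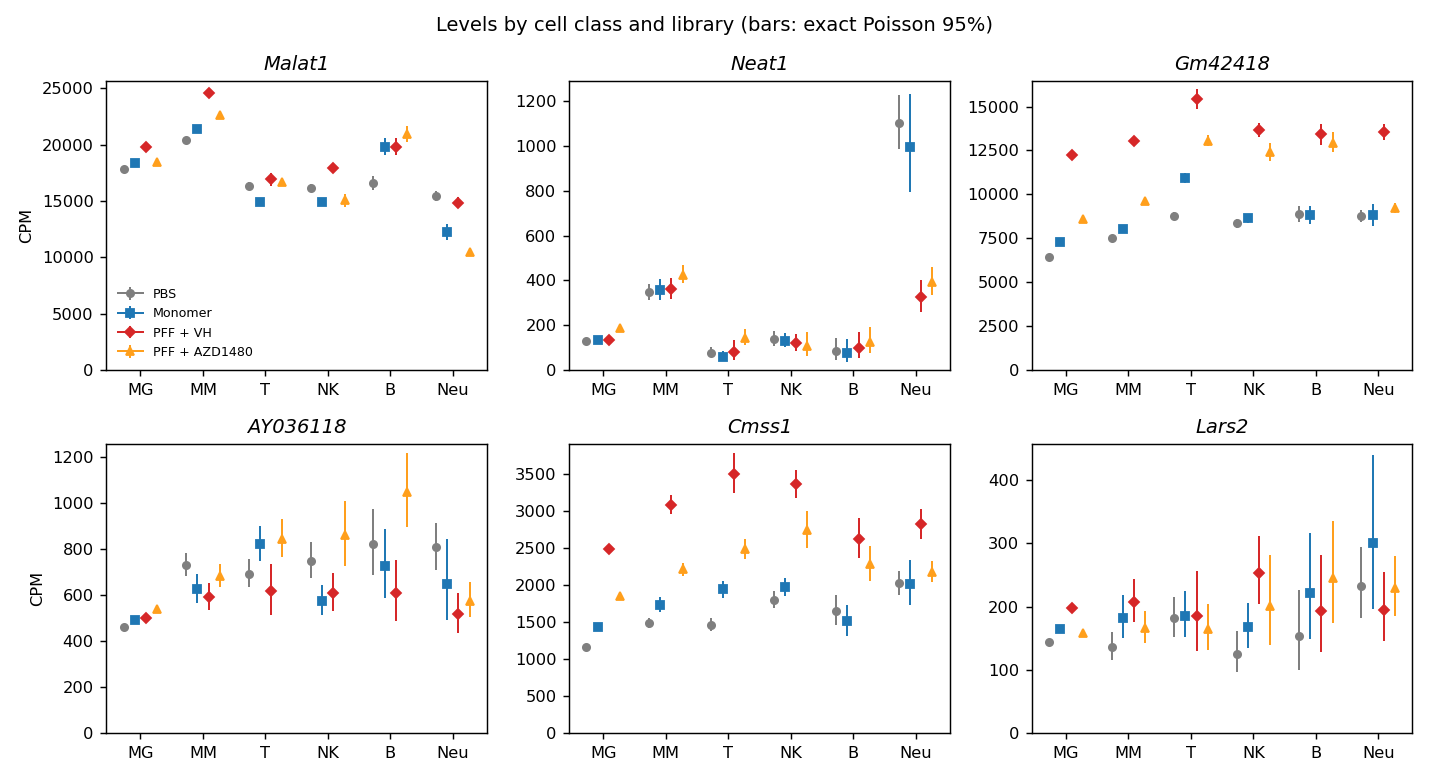
Levels of 6 of the genes by cell class (x axis) and library (colour and shape), in CPM on linear axes from 0 with exact Poisson 95% intervals. Gm42418 and Cmss1 are highest in PFF + VH within each class, though in B cells with intervals that overlap PFF + AZD1480. Malat1 is highest in MM, and Neat1 reaches 1102 CPM in Neu of PBS.

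The classes were compared within hashtags. The genes and the tests were chosen with earlier results of these data known. The p-values and counts of calls for these genes are therefore not taken as independent of that choice. The sums tested held 6 to 63 MM and 3 to 18 T cells per hashtag, against 1248 to 5603 MG. MM were higher than MG in 5 of the 6 genes tested, and T cells were higher in 3 and lower in 1. Such calls were common, since edgeR called 55.3% of 3075 genes between MM and MG (28.7% higher, 26.6% lower) and 66.5% between T cells and MG (27.4% higher, 39.1% lower). Gm26917 had too few counts to be tested, and without a filter on low counts edgeR did not call it between T cells and MG (0.34 on the log2 scale, adjusted p = 0.75). In a bulk sum of a class, RNA of other cells cannot be told apart from its own.

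Neat1 had the largest difference of the 6 genes between MM and MG, 2.66-fold higher in MM (log2 difference 1.41 ± 0.15, SE, adjusted p = 3.1e-10) and higher in 9 of 9 hashtags. Cmss1 was higher in MM by 0.45 ± 0.10 (adjusted p = 2.4e-04), Gm42418 by 0.34 ± 0.10 (adjusted p = 0.0044), and AY036118 by 0.41 ± 0.14 (adjusted p = 0.014), each in 9 of 9 hashtags. Malat1 was higher by 0.28 ± 0.10 (adjusted p = 0.020, 8 of 9 hashtags), and Lars2 differed by 0.27 ± 0.16 and did not pass (adjusted p = 0.14). With RLE in place of TMM scaling, which moved the median of all genes from 0.02 to −0.09, Malat1 (0.18, adjusted p = 0.080) and AY036118 (0.30, adjusted p = 0.050) were no longer called. Malat1 was also lost with DESeq2 (0.18, adjusted p = 0.081) and without PFF + AZD1480 hashtag 2 (0.23, adjusted p = 0.055). Where at least 70% of a cell's marker UMIs had to be of its class, Gm42418 (0.18, adjusted p = 0.19) and AY036118 (0.20, adjusted p = 0.29) were lost.

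T cells held more Gm42418 than MG by 0.57 ± 0.11 on the log2 scale (SE, adjusted p = 1.3e-05, 8 of 8 hashtags), more Cmss1 by 0.55 ± 0.11 (adjusted p = 2.7e-05, 8 of 8) and more AY036118 by 0.59 ± 0.16 (adjusted p = 0.0017, 6 of 8). Malat1 was lower in T cells, at −0.27 ± 0.11 (adjusted p = 0.026, lower in 8 of 8). Lars2 (0.23 ± 0.21, adjusted p = 0.34) and Neat1 (−0.32 ± 0.25, adjusted p = 0.27) did not pass. The median of all genes lay at −0.24, and at −0.56 with RLE scaling, where Gm42418 (0.31), Cmss1 (0.29) and Malat1 (−0.53) kept their calls, AY036118 lost its own (0.30, adjusted p = 0.075) and Neat1 gained one (−0.64, adjusted p = 0.020). DESeq2 also lost AY036118 (0.31, adjusted p = 0.065) and called Neat1 (−0.64, adjusted p = 0.031). Of the genes called 41.2% were higher in T cells, and 30.3% with RLE scaling. Malat1 was called in T cells in only 8 of 24 runs, the main run among them (adjusted p up to 0.30). Its call was lost, among others, without PFF + AZD1480 hashtag 2, 3 or 5 or PFF + VH hashtag 1, 2 or 3 (adjusted p = 0.050 to 0.18).

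Many cells outside MG also held MG transcripts. In PFF + VH the T cells had a median of 15 T marker UMIs and 5 MG marker UMIs, and in 26 of its 62 T cells and 103 of its 207 MM a second class had at least 50% as many marker UMIs as the first. The part of MG transcripts or doublets in the class differences was not tested.

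Since the classes differed in depth, MG were also weighted to the depth of each class. Gm42418 in T cells was then 1.35-fold the level of MG in PBS, 1.504-fold in Monomer, 1.23-fold in PFF + VH and 1.53-fold in PFF + AZD1480, against 1.37, 1.496, 1.26 and 1.52 before. In MM the weighted folds of Gm42418 were 1.14, 1.07, 1.09 and 1.04, against 1.17, 1.098, 1.07 and 1.12 before. Those of Neat1 in MM were 2.65, 2.57, 2.74 and 2.31, against 2.66, 2.63, 2.71 and 2.29 before.

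In MG, Gm42418 took a smaller share of the UMIs in the deepest than in the shallowest cells, in all 4 libraries. In PBS and Monomer its share changed little above 4000 UMIs. PFF + VH held the most shallow cells: 4586 of its MG had under 1000 UMIs, against 356 to 749 elsewhere. From cells of 500 to 1000 UMIs to cells of 8000 to 15000 UMIs, Gm42418 went from 28373 to 8102 CPM in PFF + VH, from 28924 to 7678 in PFF + AZD1480, from 18357 to 7102 in Monomer and from 16329 to 6287 in PBS. In cells of 2000 to 4000 UMIs, PFF + VH (13162 CPM) and PFF + AZD1480 (13491) both lay above Monomer (8989) and PBS (8311). At 1000 to 2000 and at 4000 to 8000 UMIs PFF + VH lay above PFF + AZD1480. Of the PFF + AZD1480 MG of 2000 to 4000 UMIs, 642 had 2% to 5% mitochondrial UMIs and 352 under 0.5%. The order was the other way in PFF + VH (1525 and 1646), Monomer (281 and 607) and PBS (219 and 573). The number of Gm42418 UMIs per cell was still higher in deeper cells, at 21.6 in the shallowest and 83.2 in the deepest MG of PFF + VH.

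AY036118 showed the same gradient, 4.53-fold in PFF + VH and 2.99- to 3.51-fold in the others, but above 2000 UMIs it was lowest in PFF + VH. At 8000 to 15000 UMIs it had 298 CPM in PFF + VH, 483 in PFF + AZD1480, 455 in Monomer and 431 in PBS. Cmss1 went from 4352 to 1817 CPM in PFF + VH and from 3319 to 1706 in PFF + AZD1480, and spanned less in Monomer (1929 to 1427) and PBS (1336 to 1158). Gm26917 was 9.89-fold higher in the shallowest than in the deepest MG of PFF + AZD1480, 6.17-fold in PBS, 5.44-fold in Monomer and 2.495-fold in PFF + VH. Malat1 did not run in 1 direction with depth: the shallowest MG had 0.996- to 1.11-fold the level of the deepest, and the level was highest at 1000 to 2000 UMIs in each library (21463 to 25638 CPM). Long genes as a group took 317409 CPM in the shallowest MG of PBS and 187547 in the deepest, against 193405 and 174626 in PFF + VH, so shallow MG of the libraries differed in this share too.

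**Figure D4:**
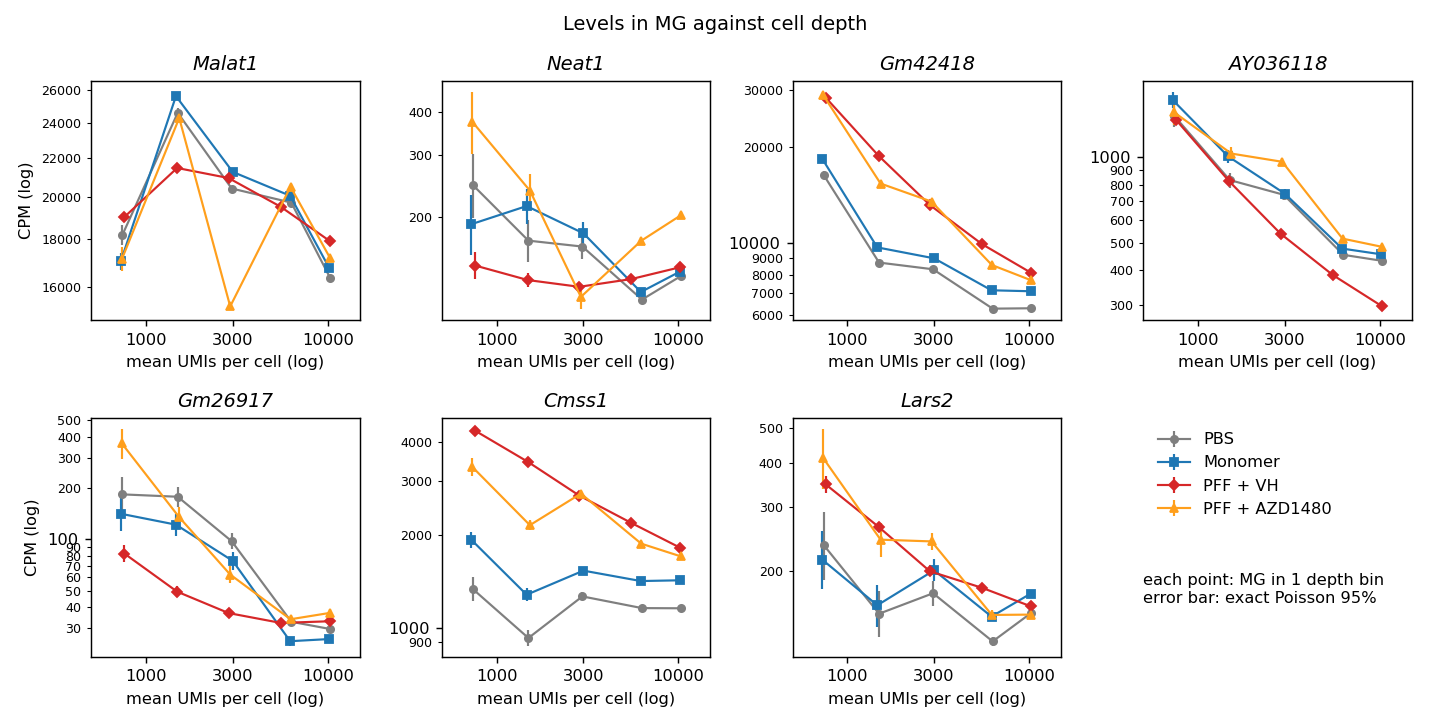
Levels of the 7 genes in MG (CPM, log axis) against the mean UMIs per cell (log axis) of 5 depth bins, with a line per library and exact Poisson 95% intervals. Gm42418 and AY036118 are lower in the deepest than in the shallowest MG of each library. The lines of both PFF libraries for Gm42418 meet at 2000 to 4000 UMIs (13162 and 13491 CPM), and PFF + VH lies above in the bin on each side.

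The slope of log UMIs on log depth over 20 depth groups of MG, where 1 means a constant share, was low for Gm42418, AY036118, Cmss1 and Lars2 in PFF + VH and PFF + AZD1480. Their slopes in PFF + VH were 0.53, 0.42, 0.66 and 0.72, the 4 lowest of 3168 genes with at least 50 CPM, whose median was 1.00. In PFF + AZD1480 they were 0.59, 0.57, 0.74 and 0.71, beside a median of 0.99, with 4, 3, 28 and 23 genes lower. In PBS they were 0.82, 0.66, 0.99 and 1.07, beside a median of 0.96. AY036118 was also among the lowest in Monomer (0.61, with 2 genes lower) and in PBS (21 genes lower). Only AY036118 had a lower slope than Gm42418 in PFF + VH, but 294 genes had one in Monomer and 637 in PBS. Malat1 had slopes of 0.93 in PFF + VH, 0.89 in PFF + AZD1480, 0.78 in PBS and 0.80 in Monomer, below the median in each, and in PBS and Monomer close to those of Gm42418 (0.82 and 0.80). Neat1 had slopes of 0.92 to 1.19. Gm26917, under 50 CPM, had slopes of 0.19 to 0.71. Gm42418 and Cmss1 were chosen with their high levels in PFF + VH, the library with the most shallow cells, known. Nothing is therefore read from the ranks of these slopes.

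When the MG of each library were weighted to the depth of Monomer, the distance of Gm42418 between PFF + VH and Monomer went from 1.68- to 1.28-fold, and that between PFF + VH and PFF + AZD1480 from 1.43- to 1.096-fold. Cmss1 went from 1.74- to 1.43-fold over Monomer and from 1.35- to 1.11-fold over PFF + AZD1480. Lars2 went from 1.203- to 1.04-fold over Monomer, and AY036118 turned round, from 1.02- to 0.728-fold. Malat1 moved from 1.08- to 1.02-fold and Neat1 from 0.985- to 1.02-fold. The mitochondrial share was 1.26-fold that of Monomer before and after, so weighting by depth did not bring every measure of PFF + VH closer to Monomer. For PFF + AZD1480 over Monomer the weighted folds were 1.17 for Gm42418, 1.28 for Cmss1 and 1.38 for Neat1, close to the unweighted 1.17, 1.29 and 1.37.

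MG of PFF + VH without a hashtag call had 16864 CPM of Gm42418, against 11542 in MG with 1 hashtag, and were shallower. By depth, MG with 1 hashtag were compared with all other MG of the library, which have no call or more than 1. They had 26139 against 29078 CPM at 500 to 1000 UMIs, 17981 against 19380.4 at 1000 to 2000, 13041 against 13390 at 2000 to 4000, 9882 against 10083 at 4000 to 8000 and 8249 against 7892 at 8000 to 15000.

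Between MG with under 0.5% and MG with 2% to 5% mitochondrial UMIs, Malat1 and Gm26917 were lower in the latter, and Cmss1 and Lars2 higher, in all 4 libraries. In PFF + VH, Malat1 went from 25086 to 14345 CPM over this step, a fold of 0.572, and the fold was 0.757 in PBS, 0.768 in Monomer and 0.652 in PFF + AZD1480. Among cells of 2000 to 4000 UMIs alone, the folds of Malat1 were 0.509 in PFF + VH, 0.649 in PBS, 0.563 in Monomer and 0.421 in PFF + AZD1480. Gm26917 had folds of 0.458 in PFF + VH, 0.449 in PBS, 0.321 in Monomer and 0.587 in PFF + AZD1480, and of 0.360, 0.171, 0.161 and 0.322 among cells of 2000 to 4000 UMIs. At 5% to 10%, which holds 173 to 427 MG per library, Malat1 was at 21271 CPM in Monomer, against 13382 to 15069 in the other libraries, but among cells of 2000 to 4000 UMIs Monomer was at 13564, against 13704 at 2% to 5%. Gm26917 was at 39.9 to 49.7 CPM at 5% to 10%, on 15 to 38 UMIs, against 15.6 to 31.3 at 2% to 5%.

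Gm42418 over this step was 1.27-fold in PBS, 1.26-fold in Monomer, 1.32-fold in PFF + AZD1480 and 0.985-fold in PFF + VH. Lars2 was 1.66-fold in PBS, 1.56-fold in Monomer, 1.49-fold in PFF + AZD1480 and 1.16-fold in PFF + VH, and Cmss1 was 1.22-fold in PBS, 1.27-fold in Monomer, 1.38-fold in PFF + AZD1480 and 1.12-fold in PFF + VH. Among cells of 2000 to 4000 UMIs the folds in PBS, Monomer, PFF + AZD1480 and PFF + VH were 2.05, 2.08, 1.59 and 1.17 for Cmss1, 2.14, 2.198, 1.59 and 1.19 for Lars2, and 1.495, 1.54, 1.19 and 1.02 for Gm42418. For all 3 genes the step was smallest in PFF + VH, and the difference between libraries was not tested. Across single MG of 4000 to 8000 UMIs, Spearman's rho with the mitochondrial share was −0.36 to −0.23 for Malat1 and 0.04 to 0.21 for Gm42418 in the 4 libraries (5000 to 6596 cells each, which are not replicates).

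**Figure D5:**
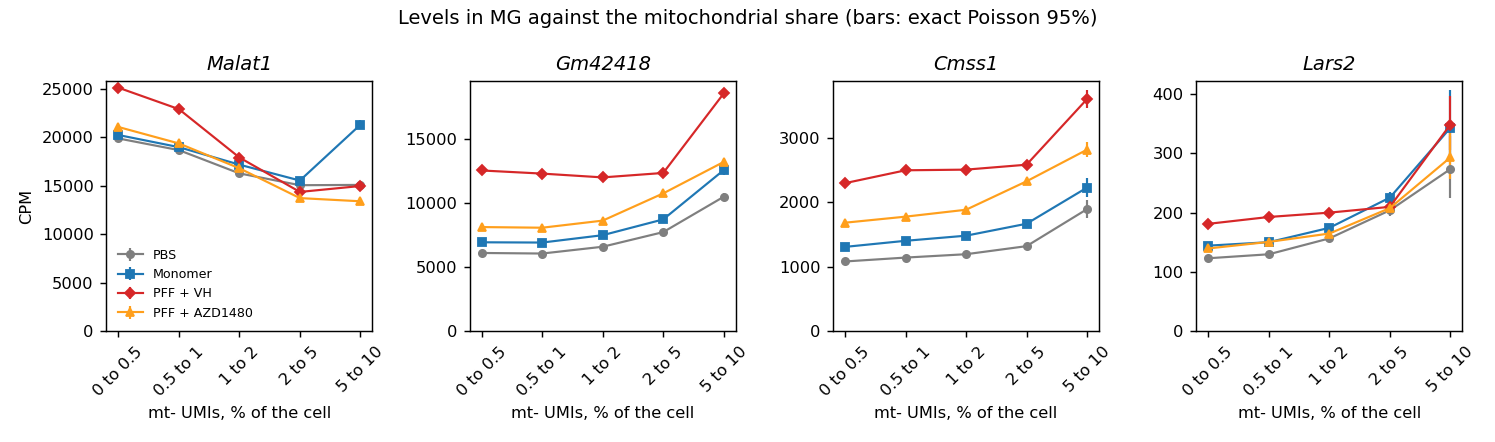
Levels of Malat1, Gm42418, Cmss1 and Lars2 in MG (CPM, linear axes from 0) against the mitochondrial share of the cell's UMIs in 5 bins, with a line per library and exact Poisson 95% intervals. Malat1 is lower at 2% to 5% than at under 0.5% in each library (0.572- to 0.768-fold), while Lars2 is higher (1.16- to 1.66-fold).

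Within the same single MG, Gm42418 went with Cmss1 (rho 0.48 to 0.63 in the 4 libraries), less with AY036118 (0.34 to 0.36) and Lars2 (0.21 to 0.30), and hardly with Gm26917 (−0.06 to −0.00) or Malat1 (−0.13 to −0.04). Malat1 went with the share of long genes (0.25 to 0.33), and Gm26917 less so (0.12 to 0.20). The rho of Gm42418 with long genes was 0.17 in PFF + VH and −0.20 to −0.13 in the other libraries. That of Cmss1 was 0.09 in PFF + VH and −0.17 to −0.09 in the others. Malat1 and Neat1, though neighbours in the genome, had a rho of 0.10 to 0.14. These cells share their library and depth range, and Neat1, Lars2 and Gm26917 have few UMIs per cell.

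The ratio of Cmss1 to Gm42418 spanned less between libraries over all MG than in MG of 500 to 1000 UMIs. Over all MG, PBS had 18.1 UMIs of Cmss1 per 100 UMIs of Gm42418 and Monomer 19.6, while PFF + VH had 20.3 and PFF + AZD1480 had 21.5. By hashtag the ratio was 21.2 ± 0.189 (SD, n = 4) in PFF + VH, with a highest value of 21.3, and 21.9 ± 0.2999 (SD, n = 5) in PFF + AZD1480, with a lowest value of 21.4, so the hashtags did not overlap. Over the 6 classes of all libraries the ratio lay between 16.7 in T cells of PBS and 24.6 in NK cells of PFF + VH. At 8000 to 15000 UMIs it was 18.4 in PBS and 20.1 in Monomer, against 22.4 in PFF + VH and 22.2 in PFF + AZD1480. At 500 to 1000 UMIs it was 15.3 in PFF + VH, 11.47 in PFF + AZD1480, 10.5 in Monomer and 8.18 in PBS.

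AY036118 had a ratio to Gm42418 that was lowest in PFF + VH, with 4.08 UMIs per 100 in MG against 7.15 for PBS, 6.71 for Monomer and 6.28 for PFF + AZD1480. It was 3.81 to 4.54 in the 6 classes of PFF + VH and 6.25 to 9.74 in those of the other libraries, without overlap. Its hashtags in MG were at 3.81 to 4.17 in PFF + VH (3.99 ± 0.167, SD, n = 4) and 6.19 to 6.47 in PFF + AZD1480 (6.32 ± 0.140, SD, n = 5). At 2000 to 4000 UMIs it was 4.08 in PFF + VH and 7.15 to 8.88 in the others, while at 500 to 1000 UMIs it was 4.77 in PFF + VH, 5.00 in PFF + AZD1480 and 8.58 to 8.69 in PBS and Monomer. A ratio lowest in PFF + VH was not particular to AY036118. In MG, Malat1 had 162 there against 215 to 278 in the other libraries, and Neat1 1.09 against 1.86 to 2.17. Gm26917 had 0.307 against 0.407 to 0.557, and Lars2 1.61 against 1.85 to 2.25. Gm42418, the divisor, was itself highest in PFF + VH.

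Over the 18 sums of a library and class with at least 50 cells, Cmss1 was the gene of 3667 most like Gm42418 (Pearson's r of log2 CPM = 0.94). Outside the 7 genes the most like were Cdk8, a kinase of the Mediator complex, with r = 0.90, then mt-Nd3 (0.76), Ndufs5 (0.75), Cops9 (0.75) and Atp5k (0.74). The r of Gm42418 was 0.12 with AY036118 and 0.01 with Malat1. Cdk8 in MG was at 144 CPM in PBS and 154 in Monomer, and at 266 in PFF + VH and 197 in PFF + AZD1480, and its depth slope in PFF + VH was 0.76, among the 6 lowest. Malat1 went most with Npc2 (0.89), Bst2 (0.87), Lmbrd1 (0.87), Clta (0.87) and Glmp (0.86), and its r with Neat1 was 0.10. The sums share libraries and depth and are not independent. Gm42418 and Cmss1 were chosen with their high levels in PFF + VH known, so nothing is read from their r or its rank.

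Of 6 lists of genes around these RNAs, the snoRNA host genes had the largest share called between PFF + AZD1480 and PFF + VH in MG (54.5%), mostly downward. Differences between the lists were not tested. For the lists too, condition and library cannot be told apart, and the p-values measure the spread between hashtags within a library. A gene that fell or rose was lower or higher in PFF + AZD1480 than in PFF + VH. The edgeR test called 26.6% of 13812 genes in this comparison (12.1% higher, 14.5% lower), with a median log2 difference of −0.00. Of 11 snoRNA host genes tested, which carry small nucleolar RNAs in their introns, 5 were lower and 1 higher, with a median of −0.22. Snhg8 fell by 0.45 ± 0.05 (SE, adjusted p = 1.1e-04), from 72.1 ± 2.54 CPM (SD, n = 4) to 54.5 ± 2.26 CPM (SD, n = 5). Gas5 fell by 0.27 ± 0.07 (adjusted p = 0.010) and Epb41l4aos by 0.31 ± 0.08 (adjusted p = 0.011). Snhg8 in MG of PBS (54.2 CPM) and Monomer (52.0) lay near PFF + AZD1480.

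Of 39 genes of rRNA synthesis and processing, 10 were lower and 0 higher, with a median of −0.08, where 14.5% of all genes were lower and 12.1% higher. Npm1, the nucleolar protein nucleophosmin, fell by 0.31 ± 0.05 (SE, adjusted p = 0.0016), from 364 ± 15.2 CPM (SD, n = 4) to 305 ± 11.3 CPM (SD, n = 5). Cd3eap and Polr1d, subunits of RNA polymerase I, fell by 0.31 ± 0.06 (adjusted p = 0.0044) and 0.22 ± 0.05 (adjusted p = 0.0045). Npm1 in PBS (297 CPM) and Monomer (282) lay near PFF + AZD1480, whereas Cd3eap (30.8 and 30.4) lay near the 31.4 CPM of PFF + VH.

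In the remaining lists the share called (21.4%, 21.1%, 11.1% and 6.25%) lay below the 26.6% of all genes tested. Of 14 paraspeckle proteins, 2 were lower and 1 higher (21.4%). Nudt21 and Hnrnpk fell by 0.26 ± 0.05 and 0.20 ± 0.05 (SE, adjusted p = 0.0045 and 0.010), and Taf15 rose by 0.12 ± 0.04 (adjusted p = 0.041). Of 19 proteins of speckles and splicing, 4 were lower (21.1%), among them Tra2b by 0.24 ± 0.06 (adjusted p = 0.017), Son by 0.16 ± 0.04 (adjusted p = 0.020) and Pnn by 0.16 ± 0.05 (adjusted p = 0.026). Of 9 other nuclear long non-coding RNAs tested, Dleu2 was higher by 0.40 ± 0.08 (adjusted p = 0.0046), while Kcnq1ot1 (0.18 ± 0.07, adjusted p = 0.069) and Firre (0.24 ± 0.09, adjusted p = 0.083) did not pass. Among 16 other mitochondrial aminoacyl-tRNA synthetases, the family of Lars2, Aars2 was higher by 0.58 ± 0.17 (adjusted p = 0.024). Its level was very low, at 2.19 CPM in PFF + VH and 3.35 in PFF + AZD1480 (means of hashtags). Wars2 (0.17 ± 0.06, adjusted p = 0.064) and Tars2 (−0.21 ± 0.09, adjusted p = 0.10) did not pass. The median of the synthetases was 0.04, where Lars2 differed by −0.35.

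Of these lists 25 genes were called in all, and 16 without PFF + VH hashtag 2, when Son, Pnn, Tra2b, Taf15 and Aars2 were among those lost. Calls were also lost for Tra2b without PFF + VH hashtag 3, for Pnn without PFF + VH hashtag 1 or PFF + AZD1480 hashtag 1 or 2, and for Aars2 without PFF + VH hashtag 4 or PFF + AZD1480 hashtag 1 or 2. With 1 hashtag left out, Taf15 kept its call in 3 of 9 cases, without PFF + VH hashtag 3 or PFF + AZD1480 hashtag 3 or 5. Of all genes called 45.3% were higher in PFF + AZD1480, and 60.8% without a scaling factor. The depth of PFF + VH moves with this contrast. Mitochondrial UMIs of MG were at 13043 ± 1075 CPM (SD, n = 4) in PFF + VH, against 10289 ± 475 CPM (SD, n = 5) in PFF + AZD1480, and UMIs of ribosomal protein genes at 84432 ± 4303 and 64617 ± 2893 CPM, with no overlap between the hashtags in either. Their part in these differences was not tested.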

How the data were processed

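The files hold counts of UMIs for each gene in each cell, as deposited by the authors after Cell Ranger mapped the 10x 3′ reads of CD45+ midbrain cells to mm10. The headers name release 7.0.1, which differs from the release named in the study's methods. Whether intronic reads were counted is not given in the sources used here. The 4 libraries hold 99658216 to 116440449 UMIs, 1 library per condition.

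Cells were filtered as in the study. Each cell took the class with the most UMIs of its markers (at least 5 UMIs from 3 markers, no tie), a rule set after the data were seen. It is a range, not a type: in PFF + VH 1423 of 32809 MG, 15 of 207 MM and 8 of 62 T cells had 7 or fewer marker UMIs. Doublets were left in, because Scrublet (scanpy 1.11.5) marked 1 cell of PFF + VH and 0 in each other library. Hashtags were called with HTODemux (Seurat 5.3.0, positive quantile 0.99) and taken as replicates. More than 1 hashtag was found in 3987 cells of PFF + VH (11.6%, median 4680 UMIs) and 1760 of PFF + AZD1480 (13.5%, median 8111 UMIs). These cells, likely doublets, stayed in the values of whole libraries and classes but not in those of hashtags. The study's methods state 4 biological replicates for PFF + VH and 5 for PFF + AZD1480, as many as there are hashtags, each pooled from 3 to 5 midbrains, but the sources used here tie no hashtag to a replicate, so p-values measure the spread between these sums.

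Counts of single-hashtag cells were summed per hashtag and class (at least 3 cells, which left PFF + AZD1480 hashtag 3 without T cells) and tested with edgeR 4.0.16 (R 4.3.3; filterByExpr, TMM, quasi-likelihood test, Benjamini-Hochberg adjustment over all genes, threshold 0.05), with the hashtag as a block between classes. On simulated data, 2-fold changes were recovered for 87.0% of changed genes in PFF + AZD1480 against PFF + VH (13800 genes), 28.5% in MM against MG (2789 genes) and 18.5% in T cells against MG (2809 genes), where genes lost to the filter on low counts were taken as missed. Poisson intervals and depth weights were computed with Python 3.11.15 and scipy 1.17.1.

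The 7 genes, the lists and the tests were chosen with earlier results of these data known. Named besides the 7 are Filip1l, the 3 genes with the smallest p of each list, and the 5 other genes most correlated with Gm42418 and with Malat1. Alternatives were other cell filters, classes, hashtag calls, scalings, DESeq2 1.42.0, no filter on low counts, other blocks and leaving out each hashtag. Sequences are GENCODE M21 transcripts.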

Additional observations from a re-analysis of the deposited data

Results flagged for a closer look

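Gm26917 in MM of PFF + AZD1480 hashtag 3 stood at 127.714 CPM, far from the 14.3 to 46.9 CPM of the other hashtags of that library. The value rests on 6 cells and 2 UMIs. Among sums of at least 3 cells, it was the only value that the rule for lone samples flagged in 42 groups of hashtag values of the 7 genes. Other values also stood apart without being flagged. Gm26917 in T cells of PFF + VH hashtag 1 was at 184 CPM, on 4 cells and 2 UMIs, against 41.7 to 71.7 in the other hashtags. Chance alone meets this rule in about 5% of groups. The T cells of PFF + AZD1480 hashtag 3, which are 1 cell and not counted here, stood farther out for Neat1 (580 CPM against 125 to 176).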

How the results depend on the processing

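Gm42418 stayed higher in MG of PFF + VH than of Monomer under every alternative run, with folds of 1.66 without a cell filter, 1.62 from 1000 UMIs, 1.64 with stricter classes, 1.69 with the 7 genes out of the total, 1.68 without the highest Scrublet scores and 1.87 after thinning each cell to 1000 UMIs. Thinning keeps each cell's expected share of a gene, so it does not take out the depth gradient. The fold was 1.28 when MG were weighted to the depth of Monomer. AY036118 turned to 0.973 from 1000 UMIs, and Neat1 to 1.00 without the highest Scrublet scores. The Cmss1 ratio was 20.8 from 1000 UMIs and 20.6 with stricter classes. The depth fold of PFF + VH was 3.17 for Gm42418 and 0.811 for Neat1 in MG with a single hashtag, and 3.68 for Gm42418 in the others. In MG of 2000 to 4000 UMIs of PFF + VH the mitochondrial fold was 0.509 for Malat1, 0.827 for Neat1 (1.01 over all depths) and 1.02 for Gm42418, and that of Neat1 moved more elsewhere, from 1.03 to 0.591 in PBS and from 0.872 to 0.385 in Monomer. Of the 5 calls in MM, 3 were left with 70% own markers, with MULTIseqDemux and with RLE scaling, 2 with PFF + VH alone and 1 with PFF + AZD1480 alone. Leaving out the filter on low counts moved the median of all genes to −0.58 in MM and −1.07 in T cells. In MM 1 call was then left, and Malat1 (−0.041) and Lars2 (−0.011) reversed. Of the 4 calls in T cells only that of Malat1 was left, and Neat1 gained one (−0.87). There AY036118 (0.033) lost its call, and Gm42418 (−0.029), Cmss1 (−0.035) and Lars2 (−0.31) reversed. Lars2 in T cells was −0.074 with RLE scaling and −0.074 with DESeq2. Genes called in MM (1702) were 3583 without that filter and 1099 in PFF + VH alone, and those in T cells (2044) were 4731 and, with 70% own markers, 1357. Leaving out each hashtag gave 4 to 5 and 3 to 4 calls among the 7 genes in MM and T cells, 1558 to 1685 and 1918 to 2061 genes, and 2924 to 3339 genes and 16 to 25 listed genes between the PFF libraries. Without the replicate block 1893 genes were called in MM and 2106 in T cells, and Malat1 in T cells was lost (−0.22, adjusted p = 0.061). Same-numbered hashtags of both PFF libraries did not deviate together (correlations −0.0413 to 0.0545), and with their number as a replicate block 3206 of 3675 genes were called. Scrublet's own calls were not used, since they marked almost no cell, and classes with 90% own markers left too few MM and T cells for a test. The Scrublet share, 70% markers, no scaling factor, shared barcodes and T with NK cells were chosen after seeing the data.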
